A study of Mus musculus with 15 samples.

Results

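Glutamatergic nuclei with at least 2 unique molecular identifiers (UMIs) each of Calcrl and Ajap1 made up 190 of the 134019 barcodes. They were 190 of the 48254 glutamatergic nuclei in single-nucleus RNA sequencing (snRNA-seq) of dorsal hippocampal formation (dHF) micropunches. A member had at least 1000 genes detected, at least 1 UMI of Slc17a7, at least 2 UMIs of Calcrl, at least 2 UMIs of Ajap1, and no more than 1 UMI of Gad1 and Gad2 together. The nuclei were thus chosen by their counts of these 5 genes, whose levels are given as a description. The pair of genes was picked to find hilar mossy cells. However, Csf2rb2, Drd2, Glp1r, Nmb and Calb2, further markers of mossy cells, were at or near 0 in these nuclei. The nuclei are therefore called Calcrl and Ajap1 nuclei throughout.

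The 15 libraries came from dHF punches of female C57BL/6J mice, with 1 library a mouse and 4 punches pooled for each mouse. Of these mice, 6 were virgins of matched age (nulliparous, NP). A further 4 had mated, carried a pregnancy and nursed pups to weaning (control reproductive experience, control RE), and 5 had done the same but were parted from their pups each day with scant nesting material late in the postpartum period (stress RE). The labels name no transgene and give no age. By the labels, batch 1 lacked control RE mice and consisted of 2 NP mice with 1 stress RE mouse, while every group had 2 mice in batch 2 and 2 in batch 3.

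Hilar mossy cells are glutamatergic neurons of the dentate hilus. They receive input from granule cells through large mossy terminals and send axons to the inner molecular layer of the dentate gyrus on both sides of the brain, where they contact granule cells and interneurons. Calcrl encodes the receptor that binds adrenomedullin or calcitonin gene-related peptide (CGRP), depending on which receptor activity modifying protein (RAMP) it is paired with, and it is abundant in endothelial cells of many tissues. Ajap1 encodes a membrane protein of adherens junctions. Csf2rb2, a cytokine receptor subunit gene of the mouse, Calb2 (calretinin), Nmb (neuromedin B), Drd2 (the D2 dopamine receptor) and Glp1r (the GLP-1 receptor) are the further markers by which mossy cells are recognised.

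In GRCm38, the Calcrl gene lies at chr2:84330626-84425411 on the minus strand, Ajap1 at chr4:153373221-153482811 on the minus strand, and Csf2rb2 at chr15:78282507-78305721 on the minus strand. Per library there were 5789 to 12738 barcodes with 40602582 to 96211264 UMIs in total. Each library had 1984 to 4734 glutamatergic nuclei, which are the barcodes that met the rule without the conditions on Calcrl and Ajap1. Members were deeper than the other glutamatergic nuclei, with a median of 24164.5 against 10273 UMIs, and the part of depth in passing the rule was not tested. Of the 190 members, 47 (24.7%) were among the barcodes marked for the highest doublet scores, beside 9.26% of glutamatergic nuclei and 7.47% of all barcodes, and among nuclei with at least 20000 UMIs 28.8% of members and 18.3% of glutamatergic nuclei were marked. In addition, 13 members held at least 2 UMIs of 6 endothelial genes together. The share of other glutamatergic nuclei with as many was not counted. No member shared its barcode sequence with a member of another library, and 3 had a sequence that also marked some barcode elsewhere, among the 2211 sequences present in more than 1 library.

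Of the markers that the rule did not use, Csf2rb2, Drd2, Glp1r and Nmb went against the mossy cell label, and Calb2 separated no classes. Csf2rb2 had 0 UMIs over all 190 members, which allows up to 0.590 CPM (counts per 1e6 UMIs of the class), or up to 1.58% of nuclei with a UMI. Glp1r also had 0 UMIs. Drd2 had 1.97 CPM and was counted in 3.16% of members, Nmb had 2.75 CPM in 7.37%, and Calb2 had 4.13 CPM in 6.32%. The levels of Drd2 and Calb2 were below those in nuclei that should lack the genes, and that of Nmb was close to it. Oligodendrocyte nuclei, taken as barcodes with at least 2 UMIs of Mog and none of Slc17a7, had 5.10 CPM of Drd2, 2.39 of Nmb and 4.54 of Calb2. With every nucleus thinned to 5000 UMIs, Drd2 was counted in 1.59% of members and 2.22% of oligodendrocyte nuclei, and Calb2 in 2.12% and 2.88%. The unthinned shares for oligodendrocyte nuclei were 0.929% and 1.47%, at a median depth of 3091 UMIs, and thinning kept 189 of 190 members and 2295 of 14206 oligodendrocyte nuclei.

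Csf2rb2, Drd2, Glp1r and Nmb were present in other nuclei of the same libraries. Glutamatergic nuclei with at least 2 UMIs of Csf2rb2 numbered 226, lay in all 15 mice (5 to 35 a mouse), and shared no nucleus with the members. They had a median of 23068 UMIs, close to the depth of the members. Their Drd2 level was 72.6 CPM, that of Glp1r 12.6 CPM, and that of Nmb 13.3 CPM. Calb2, at 4.31 CPM, lay between members and oligodendrocyte nuclei. Ajap1 was high in them, at 469.8 CPM against 123 CPM in members, and 221 of the 226 held at least 2 UMIs of it. Calcrl, by contrast, was at 1.80 CPM, with a single UMI in 10 of the 226 nuclei and at least 2 UMIs in 0 of them, so that no such nucleus could meet the rule. This gate was added after the members were found to hold no Csf2rb2.

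**Figure D1:**
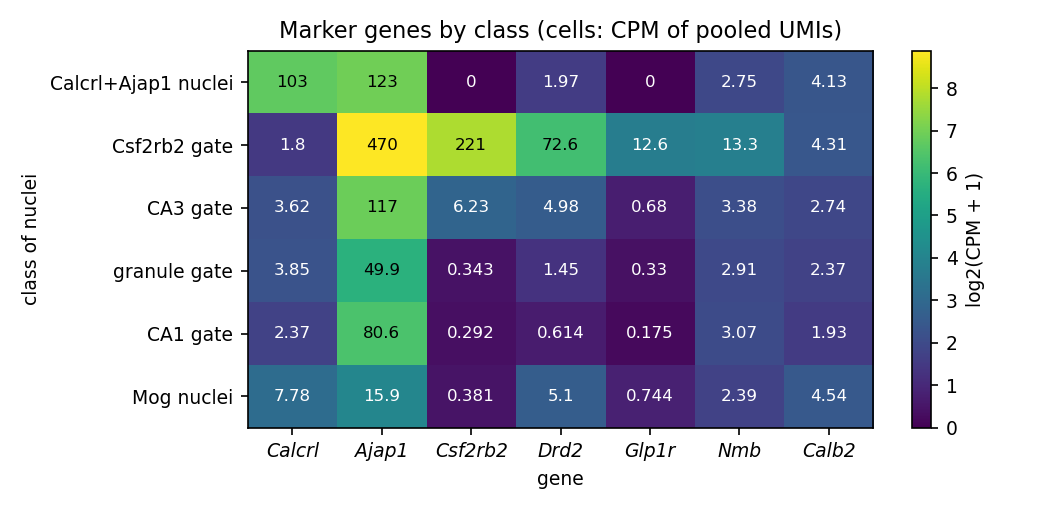
CPM of 7 genes (columns) over the pooled UMIs of 6 classes of nuclei (rows), with colour on a log2(CPM + 1) scale. Calcrl was high only in the first row, where the rule required it, whereas Csf2rb2, Drd2, Glp1r and Nmb were highest in the Csf2rb2 gate.

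Most barcodes with Calcrl UMIs were not glutamatergic. Of 2899 barcodes with at least 2 UMIs of Calcrl, 1911 (65.9%) had no UMI of Slc17a7, and 889 lay in the glutamatergic gate. Across the threshold of the rule, 47 members had exactly 2 UMIs of both genes and 48 had at least 3 of both. Csf2rb2 was at 0 CPM in both sets, and Drd2 at 0 and 1.27 CPM. Just outside, the 566 nuclei with 1 UMI of Calcrl and at least 2 of Ajap1 had 3.69 CPM of Csf2rb2 and 3.92 CPM of Drd2, and the 127 nuclei with at least 2 UMIs of Calcrl and 1 of Ajap1 had 0 and 0.464 CPM. Sgcd, which encodes a sarcoglycan, had 977 CPM at 2 UMIs and 1330.5 CPM at 3 or more, against 559.8 and 656 CPM in the nuclei just outside. Sgcd was chosen after its values were seen. In the same order, Col11a1 had 95.9 and 163 CPM in members against 77.3 and 75.7 just outside, on the side of Sgcd. Vcan had 29.0 and 91.8 CPM against 25.2 and 91.0, and Ctsc 9.68 and 26.1 CPM against 11.0 and 17.2. For Vcan and Ctsc, members with exactly 2 UMIs of both genes were thus not above all nuclei just outside.

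The first question was whether the nuclei were more or less frequent after reproductive experience or postpartum stress. They were present in every mouse, at 3 to 28 nuclei, and no difference between groups in their share of glutamatergic nuclei exceeded the spread between mice. The share was 0.151, 0.169, 0.225, 0.481, 0.496 and 0.512% in the 6 NP mice, 0.338, 0.357, 0.383 and 0.454% in the 4 control RE mice, and 0.139, 0.201, 0.346, 0.695 and 0.797% in the 5 stress RE mice. The control RE mice sat together inside the ranges of both other groups, and the stress RE mice held both the lowest and the highest value. With 3 to 28 nuclei a mouse the counting error was wide: stress RE mouse 43, the highest, had 28 of 3513 nuclei (95% Wilson interval 0.552 to 1.15%), and stress RE mouse 70, the lowest, had 3 of 2152 (0.0474 to 0.409%). These intervals cover counting error only.

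The mean share was 0.339% ± 0.174 (SD, n = 6) for NP mice, 0.383% ± 0.0506 (n = 4) for control RE, and for stress RE 0.436% ± 0.295 (n = 5). The difference of control RE from NP came to 0.0440 percentage points (exact permutation test over mice, two-sided, p = 0.605), stress RE minus control RE was 0.0527 (exact permutation p = 0.706), and stress RE minus NP was 0.0967 (exact permutation p = 0.491). All 3 had an adjusted p of 0.706 over the 3 tests by Benjamini-Hochberg. The 3 mice of batch 1 had 3, 4 and 3 members, the lowest counts of the series. Within batch 2, control RE minus NP was −0.00775 percentage points and stress RE minus control RE 0.160, and within batch 3 they were −0.0832 and 0.0936, so that the first of these differences changed sign inside both batches.

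The direction changed with a limit on depth. Among nuclei with at least 20000 UMIs, a limit added after the data were seen, the mean share was 1.69% for NP, 2.92% for control RE and 1.45% for stress RE. There, stress RE minus control RE was −1.47 percentage points (two-sided exact permutation p = 0.0476, adjusted p = 0.136 over 3 tests), which was the other sign to that over all nuclei. The part of depth in the shares was not tested further.

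**Figure D2:**
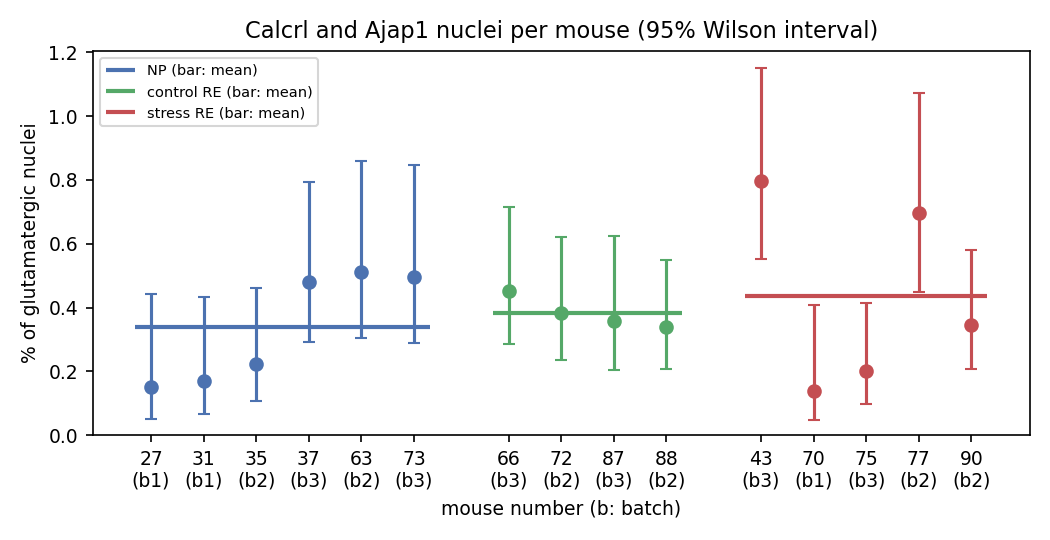
Share of Calcrl and Ajap1 nuclei among glutamatergic nuclei (%, vertical axis) in each of the 15 mice (horizontal axis, with the batch), with 95% Wilson intervals and group means as bars. The stress RE mice spread from 0.139 to 0.797%, around the control RE mice at 0.338 to 0.454%.

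To see what the members shared beyond the genes of the rule, their UMIs were summed per mouse and compared with those of 3 other sets of glutamatergic nuclei from the same mice, with the mouse as a block. These were a granule gate (at least 2 UMIs of Prox1 and 1 of C1ql2), a CA3 gate (at least 1 UMI of Iyd and 2 of Trps1, no C1ql2), both with no more than 1 UMI of Calcrl, and the Csf2rb2 gate. The 10 mice with at least 10 members entered, with 166 members, 4316 nuclei of the granule gate and 1982 of the CA3 gate, and 8 mice entered for the Csf2rb2 gate. The genes that defined either side were left out of the calls.

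The fewest genes passed against the CA3 gate. Against it, 34 of 10227 genes were at least 4-fold higher (0.332%) and 1 was at least 4-fold lower (0.00978%) at an adjusted p under 0.05 by edgeR's quasi-likelihood test. Against the granule gate, 193 of 10262 genes were higher (1.88%) and 90 lower (0.877%) by the same rule, and against the Csf2rb2 gate 112 of 5389 were higher (2.08%) and 102 lower (1.89%). Without a fold limit, 714 genes were higher (6.98%) and 447 lower (4.37%) than in the CA3 gate, 1868 higher (18.2%) and 1870 lower (18.2%) than in the granule gate, and 847 higher (15.7%) and 866 lower (16.1%) than in the Csf2rb2 gate. With equal numbers of nuclei from both classes of a mouse, 17 genes passed the 4-fold rule against the CA3 gate and 115 against the granule gate. Without likely doublets the counts were 66 and 447.

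Markers of CA3 and of granule cells both separated the members from the gates. Over all genes, 18.2% were higher and 18.2% lower than in the granule gate, and 6.98% higher and 4.37% lower than in the CA3 gate. Of the 6 CA3 markers (of 10 listed) measured against the granule gate, 6 were higher in members, with a median log2 fold change of 2.37 beside −0.038 over all genes. Against the CA3 gate 6 were also measured, and 4 of them were lower (median −0.79 beside −0.0086). The 2 sets of 6 were not the same, since Trps1 was left out against the CA3 gate as a gene of that gate. Spock1, a proteoglycan gene, had 993 CPM ± 145 against 89.8 ± 25.6 (log2 fold change 3.61, standard error 0.15, adjusted p = 3.38e-13) in members and the granule gate by edgeR. Nectin3, which encodes a cell adhesion molecule of the CA3 field, had 187 against 23.7 CPM in the granule gate and 331 CPM in the CA3 gate, so members lay between both (adjusted p = 9.52e-04 against the CA3 gate, edgeR). Of the granule markers, 7 of 7 measured were lower than in the granule gate (median −2.59), among them Dsp (9.66 against 68.2 CPM) and Stxbp6 (178 against 1062 CPM), whereas 3 of 8 were higher than in the CA3 gate (median 0.88): Glis3, Stxbp6 and Gpc4. The CA3 gate left out nuclei with C1ql2, a gene of the granule gate, while the rule for members did not. The part of this difference in these 3 genes was not tested. Between mice, Glis3 ranged from 40.0 to 458 CPM in members and Gpc4 from 13.6 to 110 CPM, with control RE mouse 87 highest for both.

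A set of 13 genes was at least 4-fold higher than in both the granule and the CA3 gate, of 9814 tested in both, and 0 were at least 4-fold lower than in both. Of these 13, 10 had gene symbols that could be named by the rule. They were Ctsc, Vcan, Arhgap31, Ebf1, Ptpru, Sox6, Sema3d, Col11a1, Necab2 and Plcxd3. Several of them, among them Ctsc, Ptpru and Sema3d, were low in both gates and passed the filter on low counts through the members. Their tests and counts of mice are therefore a description. Ctsc, the gene of the lysosomal protease cathepsin C, had 22.2 CPM ± 7.90 (SD over 10 mice, 13.4 to 36.7) against 2.09 in the CA3 and 1.13 in the granule gate, and was higher in 10 of 10 mice against each gate (log2 fold change 3.38, standard error 0.22, adjusted p = 4.34e-09 by edgeR against the CA3 gate). Vcan, which encodes the matrix proteoglycan versican, had 75.5 CPM ± 36.6 (SD over 10 mice, 24.7 to 136) against 6.63 in the CA3 and 8.47 in the granule gate, again in 10 of 10 mice (log2 fold change 3.51, standard error 0.25, adjusted p = 6.74e-09 by edgeR). Members with exactly 2 UMIs of both rule genes had 29.0 CPM of Vcan and 9.68 of Ctsc. Nuclei with at least 2 UMIs of Calcrl and 1 of Ajap1, outside the rule, had 91.0 and 17.2 CPM, so these levels were not particular to members. Col11a1, a collagen gene, had 130.3 CPM ± 49.7 (SD over 10 mice, 55.4 to 213) against 27.5 in the CA3 and 6.49 in the granule gate. Arhgap31, the gene of a GTPase activating protein, had 42.2 CPM ± 21.1 (SD over 10 mice, 17.9 to 91.7) against 5.03 in the CA3 and 5.19 in the granule gate.

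Ptpru, a receptor tyrosine phosphatase gene, and Sema3d, a semaphorin gene, were also higher in 10 of 10 mice. Ptpru had 24.1 CPM ± 11.5 (SD over 10 mice, 10.99 to 42.5) against 4.11 in the CA3 and 2.89 in the granule gate. Sema3d had 20.3 CPM ± 8.05 (SD over 10 mice, 8.24 to 33.7) against 4.13 in the CA3 and 1.91 in the granule gate. For Ebf1, Sox6, Necab2 and Plcxd3, 1 or more mice went the other way against at least 1 gate. Ebf1, a transcription factor gene that is also active in pericytes and in part of the striatum and thalamus, had 86.5 CPM ± 80.9 (SD over 10 mice, 4.82 to 235) against 8.86 in the CA3 and 13.6 in the granule gate. It was higher than in the gates in 8 of 10 mice, with its highest values in NP mouse 63 at 235 CPM and NP mouse 73 at 181 CPM, and 21.1% of members held a UMI of it. Sox6, a transcription factor gene, had 68.1 CPM ± 44.5 (SD over 10 mice, 16.2 to 145) against 9.16 in the CA3 and 13.3 in the granule gate, in 9 of 10 mice. Necab2, a neuronal calcium-binding protein gene used as a CA2 marker, had 29.97 CPM ± 15.8 (SD over 10 mice, 2.75 to 61.1) against 6.61 in the CA3 and 6.58 in the granule gate, and NP mouse 73 was the lowest. Plcxd3, a phospholipase-like gene, had 121 CPM ± 72.9 (SD over 10 mice, 24.7 to 276) against 25.6 in the CA3 and 6.97 in the granule gate. Against the Csf2rb2 gate, 7 of the 13 could be tested and 5 were higher in members, whereas Plcxd3 was lower (−0.79 on the log2 scale, adjusted p = 0.0327 by edgeR). Necab2 did not pass the test (log2 fold change 0.34, adjusted p = 0.501 by edgeR) and had 25.5 CPM in that gate. Of the 5 that were higher, Vcan had 40.2, Col11a1 57.1, Sox6 9.69 and Arhgap31 3.32 CPM in that gate. Over all genes, 15.7% were higher and 16.1% lower than in that gate. The 13 genes were chosen for being high in these same members, so this count is a description.

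**Figure D3:**
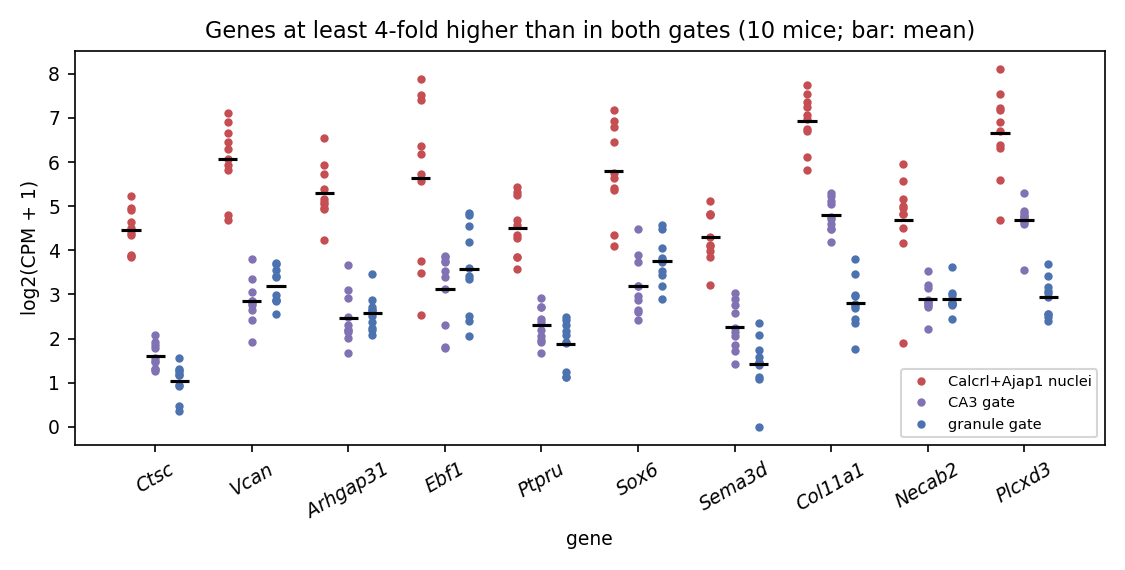
Levels (log2(CPM + 1), vertical axis) of the 10 named genes (horizontal axis) in the 10 mice with at least 10 Calcrl and Ajap1 nuclei, for these nuclei, the CA3 gate and the granule gate; points are mice and bars means. Ctsc, Vcan and Arhgap31 lay above both gates in every mouse, whereas Ebf1 did so in 8 of 10.

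Among the partners of Calcrl, Ramp1 lay between the CA3 and the granule gate. Ramp1, the partner that gives the CGRP receptor, had 17.4 CPM ± 7.07 against 9.91 ± 3.08 (log2 fold change 0.84, standard error 0.23, adjusted p = 0.0207) for members and the CA3 gate, and 17.4 against 56.9 CPM for members and the granule gate (log2 fold change −1.64, standard error 0.17, adjusted p = 1.65e-07 by edgeR). It was thus higher than in one gate, in 8 of 10 mice, and lower than in the other, in 10 of 10. Ramp2 and Ramp3, the partners that give adrenomedullin receptors, had 4.92 and 7.28 CPM. Ramp3 had 7.62 CPM ± 5.27 in members and 7.27 ± 4.54 in the CA3 gate as means over mice. It did not pass the test (adjusted p = 0.908 by edgeR), and its fitted log2 fold change of −0.13, with a standard error of 0.34, had the other sign to the difference of these means. Of the 10 genes of the CGRP and adrenomedullin list, Calcrl aside, 3 were measured against the CA3 gate with 1 higher (6.98% of all genes tested), and 2 against the granule gate with 1 lower (18.2% of all genes).

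Several genes of transmitter receptors differed from the gates. Of 5 measured serotonin receptors, 3 were higher and 0 lower than in the CA3 gate (median log2 fold change 1.03), and 4 were higher and 1 lower than in the granule gate (median 2.99), beside 6.98% higher and 4.37% lower of all genes against the CA3 gate and 18.2% each way against the granule gate. Against the Csf2rb2 gate, 1 was higher and 2 lower of 4 (median −0.36). Htr4 had 179.7 CPM ± 44.8 against 88.96 ± 21.9 (log2 fold change 1.03, standard error 0.10, adjusted p = 6.53e-07) against the CA3 gate by edgeR, higher in 10 of 10 mice, and was lower than in the granule gate (179.7 against 427 CPM). Htr1f had 146 against 17.2 CPM in the granule gate. GABA receptor subunits gave 4 higher and 0 lower of 13 against the CA3 gate and 5 and 7 of 13 against the granule gate, led against the CA3 gate by Gabrg3, which had 416 CPM ± 192 against 83.7 ± 22.3 (log2 fold change 2.23, standard error 0.16, adjusted p = 6.74e-09) by edgeR. Ionotropic glutamate receptor genes moved both ways, with 7 higher and 7 lower of 27 against the CA3 gate and 14 and 6 of 27 against the granule gate. Metabotropic glutamate receptor and Homer genes gave 2 higher and 3 lower of 9, and 5 and 3 of 10, in the same order. Against the CA3 gate, Shisa9, which encodes an AMPA receptor auxiliary protein, was higher (343 against 174 CPM) and Cacng2, the gene of another such protein (stargazin), was lower (108 against 181 CPM).

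Potassium and HCN channel genes gave 12 higher and 6 lower of 34 against the CA3 gate, where 6.98% of all genes tested were higher and 4.37% lower, and the counts of the next lists are read beside the same shares. Kcnip1, an auxiliary subunit gene, had 38.9 against 5.11 CPM, Kcnk2, the gene of a leak channel (TREK-1), had 84.6 against 22.6 CPM, and Kcnc2, a Kv3 channel gene, was lower at 636 against 1158 CPM. Kcnip1 was low in the CA3 gate and passed the filter on low counts through the members. Its values and its place in the count are therefore a description. Cadherins gave 10 higher and 4 lower of 22, with Pcdh15 at 196 CPM ± 81.9 against 35.4 ± 11.3 (log2 fold change 2.42, standard error 0.13, adjusted p = 3.58e-10) by edgeR and Cdh2 (N-cadherin) lower at 353 against 494 CPM. Adhesion and guidance genes were split, 11 higher and 10 lower of 50, with Cntnap5b higher (322 against 175 CPM) and the ephrin receptor genes Epha3 (246 against 535 CPM) and Ephb1 (298 against 489 CPM) lower. Forebrain transcription factors gave 12 higher and 3 lower of 35: Meis2 had 60.5 against 15.9 CPM and Bcl11b 178 against 74.8 CPM, both higher in 10 of 10 mice, and Lmo4 was lower at 62.8 against 144 CPM. Against the granule gate, where 18.2% of all genes were higher and 18.2% lower, potassium and HCN channels gave 12 higher and 15 lower of 35. Cadherins gave 12 and 5 of 22 there, adhesion and guidance genes 22 and 17 of 50, and forebrain transcription factors 16 and 10 of 36.

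Hormone-related genes were measured because the study is about reproductive experience. Nr3c2, the mineralocorticoid receptor gene, had 1486 CPM ± 302 against 1108 ± 92.4 (log2 fold change 0.42, standard error 0.085, adjusted p = 0.00205) in members and the CA3 gate by edgeR, higher in 10 of 10 mice. Of 7 genes induced by glucocorticoids, 3 were higher and 1 lower (6.98% and 4.37% over all genes), with Fkbp5 at 96.6 against 44.8 CPM and Zbtb16 at 331 against 177 CPM higher in 10 of 10 mice, and Sgk1 lower at 193 against 262 CPM. Of 8 peptide and growth factor receptors, 1 was higher (Ghr, the growth hormone receptor gene) and 1 lower (Crhr1) than in the CA3 gate, which is near the share over all genes there. Against the granule gate, 3 of 11 such receptors were higher and 6 lower, beside 18.2% each way over all genes. Of 7 genes induced by glucocorticoids, 2 were higher and 1 lower than in the granule gate. Erbb4, a neuregulin receptor gene, had 182 CPM in members against 59.4 in the CA3 gate. It ranged, however, from 11.6 to 431 CPM between mice and had 2177 CPM in oligodendrocyte nuclei.

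The distance from the Csf2rb2 gate was large in both directions. Drd2 had 0.484 CPM ± 0.991 in members and 70.9 ± 26.7 in the gate over the 8 mice, with members at 0 to 2.73 CPM a mouse. These levels are a description, since the gate was added once the members were seen to lack mossy cell markers and Drd2 passed the filter on low counts through the gate. NP mice 37 and 63, with fewer than 10 nuclei in that gate, were not in this comparison and had 2.41 and 8.94 CPM of Drd2 in members, the latter the highest of the 10 mice. Of the genes of the CA3 list, Trps1 was lower at 739 against 3008 CPM and Spock1 higher at 984 against 716 CPM. Shisa9 had 332 against 34.8 CPM, Lrrtm4, which encodes a synaptic adhesion protein of the dentate gyrus, had 3386 against 502 CPM, and the transcription factor gene Sox5 had 402 against 32.2 CPM; all 3 were higher in members in 8 of 8 mice. Satb1, a chromatin organiser gene, was lower at 30.3 against 314 CPM, as were Necab1 at 46.3 against 353 CPM and Cdh13 (T-cadherin) at 190.1 against 903 CPM, in 8 of 8 mice each. Sgcd, chosen after its values were seen, was higher than in all 3 gates, with 1115 CPM in members beside 323 in the CA3, 132 in the granule and 124 in the Csf2rb2 gate.

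**Figure D4:**
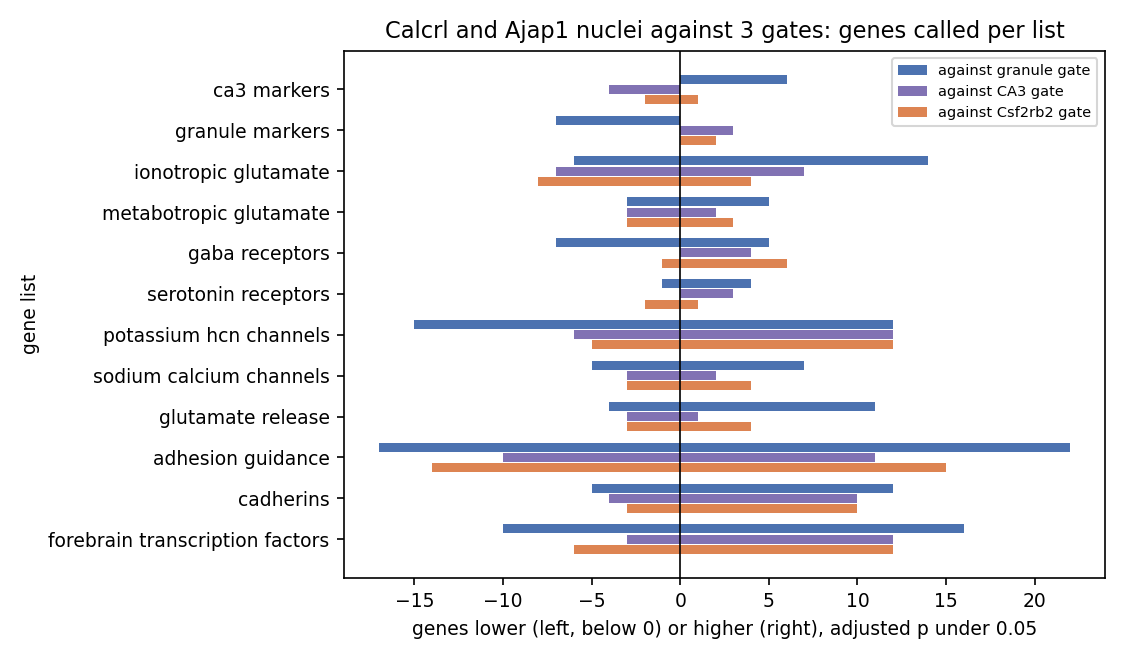
Number of genes of each fixed list (vertical axis) that were higher (right of 0) or lower (left of 0) in Calcrl and Ajap1 nuclei than in the granule, CA3 and Csf2rb2 gates, at an adjusted p under 0.05. All 6 measured CA3 markers were higher than in the granule gate and 7 granule markers were lower, while most other lists held genes of both directions.

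By most marker lists, members exceeded nuclei of like depth no more often than those nuclei themselves. To compare them, 132 members and 6476 other glutamatergic nuclei with at least 20000 UMIs were scored by the CPM of each marker list. The other nuclei include those of the CA3, granule and CA1 gates, so a low count does not tell whether members resemble these classes. Counted were the members above the 95th percentile of the other nuclei, which 5% of those nuclei exceed. For 8 genes known from CA2 (Rgs14, Amigo2, Pcp4, Necab2, Map3k15, Cacng5, Avpr1b and Ntf3, a list drawn up after the data were seen, with Necab2 already chosen for being high in members), 15 of 132 members (11.4%) in 9 mice were above it, while 35 had no UMI of the 8. For the CA3 list it was 6 members (4.55%), with a median of 3315 CPM in members against 1857 in the other nuclei. The granule list had 2 members, the CA1 list 2 and the thalamic and habenular list 0. For the list of 6 mossy cell markers that the rule did not use, 2 members (1.52%) were above it and 78 had no UMI. This list also holds Ap2s1, a gene not named above, which had 0 to 21.6 CPM a mouse in members and did not pass the test against the granule or the CA3 gate. Of the lists of other cell types, endothelial markers had 13 members (9.85%), microglial markers 12 (9.09%), interneuron markers other than Gad1 and Gad2 8 (6.06%), oligodendrocyte markers 6 and astrocyte markers 5. Per mouse, the 7 endothelial markers summed to 16.9 to 234 CPM for NP, 13.3 to 238 for control RE and 29.7 to 158 in stress RE members. Without the 13 nuclei with endothelial UMIs, 33 genes passed the 4-fold rule against the CA3 gate instead of 35 and 277 against the granule gate instead of 283.

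The second question was whether expression in these nuclei differed between groups. In the 10 mice with at least 10 members (3 NP, 4 control RE and 3 stress RE), 0 of 6200 genes passed an adjusted p under 0.05 by edgeR in control RE against NP, in stress RE against control RE, or in stress RE against NP, a share of 0% in each. At an unadjusted p under 0.05 there were 322, 264 and 229 of the 6200 genes by edgeR, near or below the share of 0.05 that chance alone gives. DESeq2 called 0, 1 and 0 genes, with 175, 164 and 112 at an unadjusted p under 0.05, and that 1 gene was Rerg. Without a filter on low counts, edgeR called 45, 40 and 58 genes of 19864, and without likely doublets it called 24, 0 and 0 genes in 8 mice. The 5 mice with fewer than 10 members, among them all 3 of batch 1, were not in the fit. The values below are those of the genes with the smallest unadjusted p in each direction, and none of them passed the test in the edgeR fit of 6200 genes. Genes chosen this way tend to separate the groups, so a lack of overlap among them is a description. The share of all genes without overlap is not given here. Any pair of the comparisons shares the mice of a group, NP, control RE or stress RE, so they are not independent.

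Rerg, which encodes a small GTPase regulated by oestrogen, had 116, 125 and 206 CPM for NP, 45.8, 63.7, 67.3 and 81.2 for control RE and 153, 155 and 254 CPM in stress RE mice. The control RE mice lay below both other groups without overlap (stress RE minus control RE, log2 fold change 1.48, standard error 0.27, adjusted p = 0.415 by edgeR, and control RE minus NP, log2 fold change −1.11, standard error 0.28, adjusted p = 0.933). In DESeq2, stress RE minus control RE had an adjusted p of 0.0210. Dpf3, a subunit gene of the BAF chromatin remodelling complex, had 263, 346 and 349 CPM for NP, 127, 128, 155 and 181 for control RE and 234, 319 and 355 in stress RE mice, again with the control RE mice lowest (log2 fold change 1.02, standard error 0.20, adjusted p = 0.415 for stress RE minus control RE, edgeR). Gopc, a Golgi trafficking gene, had 45.8, 49.5 and 55.9, then 21.2, 22.4, 23.2 and 27.5, then 43.7, 54.8 and 56.5 CPM, in the same order of groups. For Nectin3 the values were 123, 255 and 294 CPM in NP, which overlapped the 79.7, 87.1, 123 and 161 CPM of control RE, and 231, 239 and 276 in stress RE mice.

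The summed level of the CA3 markers also differed between the mice. The 10 CA3 markers, of which Nectin3 is one, summed to 2768 to 3278 CPM in members of the NP mice, 1819 to 3163 CPM in control RE and 3236 to 3859 CPM in stress RE mice. The control RE mice overlapped the NP mice and lay below the stress RE mice. As means over 10 mice, Rerg had 127 against 258 CPM, Dpf3 246 against 414 CPM and Nectin3 187 against 331 CPM in members and the CA3 gate. The 8 genes known from CA2, a list drawn up after the data were seen that holds Necab2 and Cacng5, summed to 54.95 to 212 CPM for NP and 161 to 201 for stress RE mice, and the control RE mice lay above both at 220.0 to 343 CPM. Necab2 and Cacng5 had the smallest p of the calcium-binding and ionotropic glutamate receptor genes in control RE against NP. The position of the control RE mice on this sum is therefore a description. The part of the CA3 or the CA2 list in the values of Rerg, Dpf3, Gopc and Nectin3 was not tested, and a different makeup of the nuclei and a different level per nucleus cannot be told apart.

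Lower values in stress RE than in control RE mice had the smallest p for Fkbp5, Cald1 and Chrm2. Fkbp5, a chaperone gene induced by glucocorticoids, had 71.4, 89.1 and 98.4 CPM for NP, 114, 116, 124 and 146 for control RE and 58.2, 70.95 and 77.7 in stress RE mice (log2 fold change −0.84, standard error 0.20, adjusted p = 0.999 for stress RE minus control RE, edgeR). The control RE and stress RE mice did not overlap. Cald1, the gene of the actin-binding protein caldesmon, had 33.7, 49.2 and 71.4 CPM for NP, 32.6, 34.5, 34.8 and 41.2 for control RE and 11.6, 13.6 and 13.7 in stress RE mice, and stress RE minus NP had the smallest adjusted p of that comparison (log2 fold change −1.89, standard error 0.33, adjusted p = 0.345, edgeR). Chrm2, the M2 muscarinic receptor gene, had 2.75, 4.82 and 44.7 CPM in NP, 6.96, 22.9, 34.7 and 42.5 in control RE and 0, 0 and 1.14 in stress RE mice. The NP mice overlapped the control RE mice. The members of a mouse held 218210 to 875500 UMIs in all, so values of a few CPM, here and below, rest on few UMIs. Pdzrn3 had 0, 19.2 and 24.6 CPM in NP, 4.64, 15.9, 61.2 and 68.7 in control RE and 0, 2.28 and 2.73 in stress RE mice, and Pdzrn4 and Epha3 completed the 10 genes of this comparison.

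In control RE against NP, Numb, whose product antagonises Notch signalling, had 116, 117, 118 and 174 CPM in control RE mice against 57.8, 65.9 and 80.5 in NP mice (log2 fold change 0.95, standard error 0.21, adjusted p = 0.933, edgeR). Tgfb2, the gene of a transforming growth factor, had 34.7, 41.2, 44.1 and 50.5 CPM in control RE against 76.03, 86.7 and 143 in NP mice (log2 fold change −1.20, standard error 0.26, adjusted p = 0.933, edgeR). Kctd8, the gene of a GABA-B receptor auxiliary subunit, had 0, 2.66, 12.2 and 27.5 against 8.24, 69.9 and 169.9 CPM, and these groups overlapped. Cryl1, Nmt2, Ptpru and Lekr1 were the other genes with higher, and Dpf3, Gopc and Rerg those with lower, values in control RE mice. In stress RE against NP, Ttc28 had 27.4, 29.9 and 30.02 CPM against 69.9, 74.2 and 82.7, and Mapk4, an atypical MAP kinase gene, had 28.6, 39.9 and 51.9 against 78.3, 90.7 and 98.8. Fhit, Alg6, Lekr1, Wdr17 and Gtf3c3 had higher, and Pcsk1n and Taok2 lower, values in stress RE mice.

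Of the fixed lists, 0 measured genes passed the test by edgeR in any of the 3 comparisons. Over all genes tested, the median log2 fold change was 0.0057 for control RE minus NP, −0.018 for stress RE minus control RE and −0.0048 for stress RE minus NP. In that order, the 6 measured CA3 markers had medians of −0.35, 0.82 and 0.28, and the 6 measured granule markers −0.13, −1.19 and −1.27. The 8 steroid hormone receptors had 0.060, −0.12 and −0.079, the 5 measured dopamine signalling genes 0.21, 0.0094 and 0.10, and the 5 glucocorticoid-responsive genes 0.40, −0.17 and −0.031. Of the immediate early genes 4 of 20 were measured, with medians of 0.41, −0.12 and 0.24. The granule markers summed to 469.7 to 813 CPM for NP, 176 to 1567 for control RE and 247 to 269 in stress RE mice. Of the mossy cell markers outside the rule, 0 were measured in this fit.

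**Figure D5:**
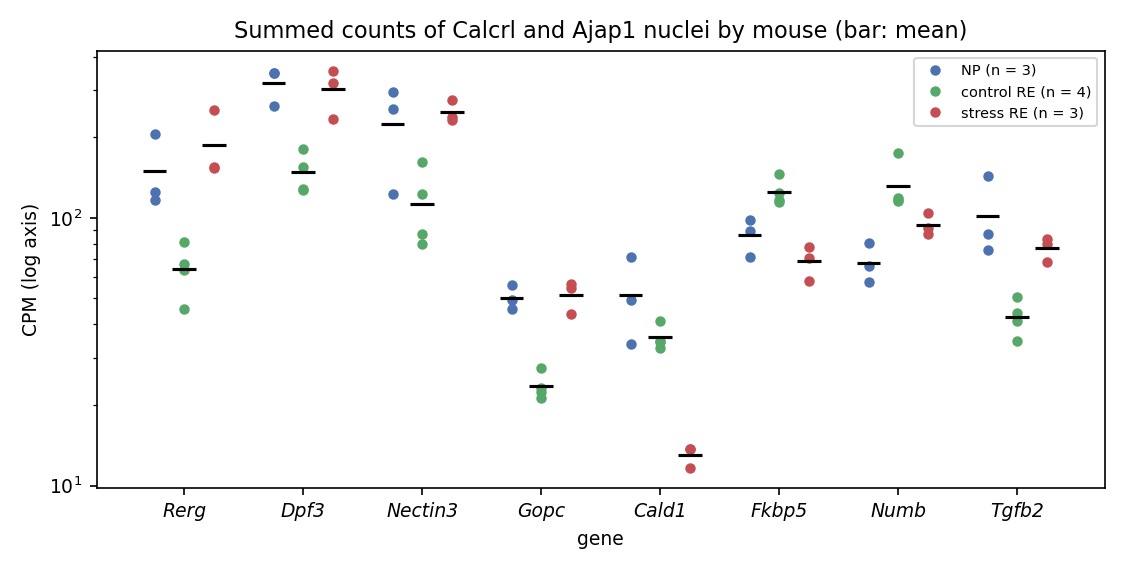
CPM (log axis, vertical) of 8 genes (horizontal axis) in Calcrl and Ajap1 nuclei of each mouse with at least 10 of them, for 3 NP, 4 control RE and 3 stress RE mice; bars are means. Rerg, Dpf3 and Gopc were lowest in the 4 control RE mice, and no gene passed an adjusted p under 0.05 in the edgeR fit of 6200 genes.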

How the data were processed

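The authors made the deposited UMI counts with Cell Ranger (7.1.0 in the submitters' processing notes; the file headers name an earlier version) against mm10, and deposited its filtered barcodes. The counts are whole numbers with no normalization, and carry no correction for free RNA and no removal of doublets, so the authors' later steps are not part of them. The members, gene lists and tests were chosen with earlier results of these data known. Replicates were mice. Shares per mouse were tested by exact permutation (two-sided). Counts were summed per mouse over mice with at least 10 nuclei, filtered with filterByExpr, scaled by TMM and tested with edgeR 4.0.16 (quasi-likelihood, Benjamini-Hochberg) in R 4.3.3, with all groups in 1 fit, or with the mouse as a term between classes. DESeq2 1.42.0 was an alternative. Scrublet (scanpy 1.11.5) scored doublets per library, marking 0.8% of barcodes per 1000 barcodes, and marked nuclei were kept except in an alternative. Named genes were the mossy cell markers, up to 20 genes by the smaller of the 2 fold changes among those at least 4-fold higher than in both the granule and CA3 gates with a mean of 20 CPM, the 5 genes with the smallest p in each direction of a group comparison, and up to 4 genes a list by p. Positions are from GENCODE for GRCm38. Some items are not reported here. The computations were tested on simulated counts. Limits for a gene with 0 UMIs assume 3.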

Additional observations from a re-analysis of the deposited data

Results flagged for a closer look

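Among the shares and depths in the 3 groups, and the levels of the named genes in the 4 control RE mice, 52 sets of values were examined for a mouse far from the rest of its group, and chance alone gives about 1 in 20. For Arhgap31, control RE mouse 87 had 91.7 CPM and the other control RE mice 30.2, 31.9 and 34.7 CPM. For Numb, the same mouse had 174 CPM and the others 116, 117 and 118 CPM. Mouse 87 gave 12 members, the fewest of the control RE mice.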

How the results depend on the processing

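No group difference in the share of Calcrl and Ajap1 nuclei had an adjusted p under 0.05 under any alternative, but the signs were not stable. Control RE minus NP was −0.541 percentage points with 1 or more UMI of Calcrl and Ajap1, −0.00948 without likely doublets, −0.00775 within batch 2 and −0.0832 within batch 3. Stress RE minus NP was −0.337 with 1 or more UMI, and among nuclei with 20000 or more UMIs it was −0.239 and stress RE minus control RE −1.47. Leaving out each mouse gave 0.00647 to 0.0787 for control RE minus NP, −0.0377 to 0.127 for stress RE minus control RE, which was −0.0377 without stress RE mouse 43 and −0.0121 without mouse 77, and 0.00636 to 0.171 for stress RE minus NP. The counts of genes between groups, 0 in each comparison, were 45, 40 and 58 with no filter on low counts, 24 for control RE minus NP without likely doublets, 1 for stress RE minus control RE in DESeq2, and 0 to 1 when single mice were left out (1 without control RE mouse 72). For the 10 named genes of each comparison, 4 of 178 results under the alternatives had an adjusted p under 0.05 for control RE minus NP. For stress RE minus control RE it was 8 of 170, and for stress RE minus NP 5 of 178. The 4-fold counts of 283 genes against the granule gate, 35 against the CA3 gate and 214 against the Csf2rb2 gate were 863, 201 and 673 with no filter on low counts; the first 2 were 115 and 17 with equal nuclei per class, and 447 and 66 without likely doublets. Leaving out each mouse gave 266 to 338, 31 to 46 and 210 to 230. The cause of these changes was not tested. Group fits over mice with 20 or more nuclei, or with 3 or more UMIs of both genes, could not be made, since 0 NP and 0 control RE mice had enough nuclei. The alternatives without endothelial UMIs, at 20000 or more UMIs and for the Csf2rb2 gate were chosen after seeing the data. No paired analysis was possible because each mouse number belongs to a single mouse and the groups share none, whereas the class comparisons had the mouse as a term. With batch as a term, the group comparisons again gave 0 genes each. Shares rest on 3 to 28 nuclei a mouse.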
